A study of Canis lupus familiaris with 62 samples.

Results

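The end of dog chromosome 35 holds a run of short genes without introns that has the layout of a histone gene cluster. They were chosen by position and shape only, as the genes on chromosome 35 with a single exon, a start at or beyond position 23000000 on CanFam3.1 and a length from 300 to 700 bases. The rule found 43 of the 30951 genes of the counts file. The file pairs no identifier with a name, and a RefSeq gene table of another dog assembly (UU_Cfam_GSD_1.0) matched 0 of them. That table lists 41 histone symbols on chromosome 35, so the label rests on position, length and exon number and not on names. Genes are numbered here from 1 to 43 in order along the chromosome.

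Histones are the proteins around which DNA is wound. H2A, H2B, H3 and H4 build the core of the nucleosome, and the linker histone H1 binds the DNA between cores. Most histone genes of dividing cells sit in clusters, have no introns, and give messenger RNA that ends in a stem-loop and not in a poly(A) tail. H2A and H2B genes often lie head to head with a shared stretch of DNA between them. The RNA rises during DNA synthesis, and it is under-represented where libraries are made from polyadenylated RNA.

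The study sequenced total RNA from fixed, paraffin-embedded meningiomas, tumours of the meninges, that arose spontaneously in dogs, with 62 libraries. The treatment label put 27 dogs in an untreated group, 13 in Sx, 9 in SxRT, 7 in a steroid group with or without an anti-epileptic drug, 3 in RT, and 3 in a group given an anti-epileptic drug alone. Sx and RT were read as surgery and radiotherapy. Tissue came from surgery or from necropsy, the dogs were of several breeds, both sexes and either neuter status. P-values measure the spread between these libraries.

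Libraries held from 1967061 to 12063982 counts (median 4190135). Mitochondrial genes took between 3.00% and 46.7% of the counts. Untreated dogs all have sample names that begin with N, and all surgical dogs but Sx replicate 1 have names that begin with S, so the name letter and surgery cannot be told apart. In Sx and SxRT libraries together, the share of even values among low counts was 86.5% ± 3.46 (SD, n = 22), against 91.2% ± 2.71 (SD, n = 27) in untreated libraries, and 17 of the 22 had a larger total than the untreated median. The share of even values was a term in an alternative fit given below. Beyond that, the part of these measures in any difference below was not tested.

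The 43 genes stood in 6 blocks separated by gaps of more than 100000 bases. Genes 3 to 21 formed the largest block, from position 23977201 to 24194648. Genes 26 to 41 formed the next, from 24999692 to 25061935. Genes 22 to 25 lay between them, genes 1 and 2 came first, and genes 42 and 43 stood alone. The genes were split almost evenly between strands, with 21 on the plus strand and 22 on the minus strand.

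Lengths were as narrow as the positions. All 43 lengths were multiples of 3, as coding lengths without untranslated regions are, though the coding bounds themselves were not examined. There were 8 genes of 312 bases, 8 of 381, 7 of 393 and 8 of 411, which together made up 31 of the 43. As background, these are the coding lengths of most mammalian H4, H2B, H2A and H3 genes, in that order. Of 596 single-exon genes of the same size range elsewhere in the file, 35 had one of those lengths, and 6 of the 35 lay in 1 run on chromosome 17, from 59121976 to 59176643. At the edges of the rule, the shortest member had 306 bases and 23 counts over all libraries, and the longest single-exon gene below the minimum had 276 bases and 160 counts. The longest member had 681 bases and 470 counts, and the shortest single-exon gene above the maximum had 930 bases and 0 counts.

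There were 8 pairs of neighbours less than 500 bases apart, and 7 of them pointed away from each other. Those 7 pairs each joined genes of 378 to 393 bases, with 297 to 402 bases between them, which is the layout known for H2A and H2B pairs. The partners did not have equal counts. Gene 24 had 258 counts over all libraries and its partner, gene 25, had 12. Gene 8 had 345 counts and gene 9 had 572, and this was the only such pair with both partners above the filter on low counts. Across libraries their log2 CPM had an r of 0.23.

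Levels were low. The 43 genes together took 10922 of 285056147 counts, or 38.3 CPM (counts scaled by the library total), and 1 count in the median library was worth 0.239 CPM. Of the 43 genes, 17 passed the filter on low counts, 26 did not, and 19 had counts in at least 31 libraries. From here on, CPM values of genes, classes and blocks in single libraries use library totals adjusted by TMM, a scaling factor per library. Gene 1 had no count in any library, which allows up to 0.0210 CPM over all libraries by counting error alone, taking 3 fragments of 2 counts each (6 counts) as the limit. Among the values above 0, 74.5% were even; each read of a pair had been counted.

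Per kilobase, the block of genes 3 to 21 was the most abundant of the larger blocks. It held 69.9% of the counts of the 43 genes at 3.87 CPM per kb of member sequence, and 11 of its genes passed the filter. The block of genes 26 to 41 held 17.5% at 1.03 CPM per kb, and 3 of its genes passed. Over single libraries, the medians were 3.97 and 0.804 CPM per kb, and the first block was the higher in 60 of 62 libraries.

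**Figure D1:**
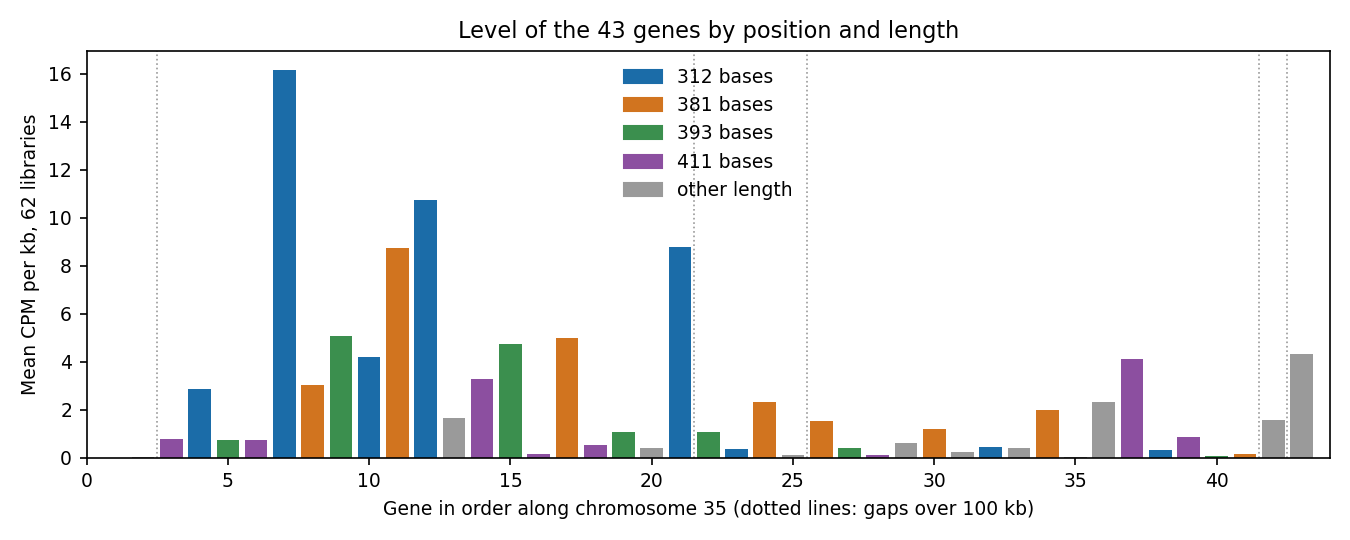
Bars give the mean CPM per kilobase over 62 libraries (vertical axis) of each of the 43 genes in order along chromosome 35 (horizontal axis), coloured by gene length, with dotted lines at gaps over 100 kb. Gene 7 is the tallest at 16.1, and most genes past gene 21 lie below 2.

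The length classes differed in level. Genes of 312 bases, the H4 length, had 5.48 CPM per kb as a class, genes of 381 bases (H2B) 3.00, genes of 393 bases (H2A) 1.88 and genes of 411 bases (H3) 1.32. Single genes overlapped between classes. Those of 312 bases ran from 0.307 to 16.1 CPM per kb (median 3.51), and those of 381 bases from 0.180 to 8.73 (median 2.17). Those of 393 bases ran from 0.0766 to 5.09 (median 1.06), and those of 411 bases from 0.108 to 4.11 (median 0.767). The class of 312 bases was above the class of 381 bases in 50 of 62 libraries, above that of 393 bases in 55 and above that of 411 bases in 61. The most abundant gene per kb was gene 7 (ENSCAFG00000029110, 24045023 to 24045334, 312 bases), with 16.1 ± 9.82 CPM per kb (SD, n = 62). Gene 12 (ENSCAFG00000031940, 24141874 to 24142185, 312 bases) had 10.8 ± 7.77. Gene 21 (312 bases, from 24194337) had 8.77 ± 7.93, and gene 11 (381 bases, from 24131296) had 8.73 ± 6.60. Genes 21 and 11 differed by far less than their spread. Gene 9 (ENSCAFG00000031860, 24067113 to 24067505, 393 bases) followed with 5.09 ± 6.75, and gene 17 (381 bases, from 24178933) had 5.01 ± 4.08. As a scale, the median of all 18370 genes tested was 8.16 CPM per kb, and the 17 genes that passed lay between percentiles 19.2 and 68.6 of it.

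The leading gene changed from library to library. Gene 7 had the highest CPM of the 43 in 25 of 62 libraries, genes 11 and 12 in 9 each, gene 9 in 5 and gene 21 in 4, and 10 different genes led at least 1 library. The leading gene held between 8.84% and 52.0% of a library's counts for the 43 genes, with a median of 18.03%. The highest share was that of gene 43 in untreated replicate 14, a library with 50 counts of the 43 genes, spread over 8 of them. Untreated libraries had a median of 161 such counts. How far sampling of so few counts changes the leading gene was not tested. Gene 43 is 648 bases long and stands alone at 26048935, with 4.34 ± 3.70 CPM per kb.

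Which genes varied together was asked over the 15 genes whose log2 CPM (prior count 2) averaged 0 or more, in 105 pairs and 62 libraries. As a whole the genes varied together only weakly. The median Pearson r was 0.094, with a range from −0.30 to 0.53, and 72 of the 105 pairs were positive. The median between these genes and all other genes tested whose log2 CPM also averaged 0 or more was 0.009. With such other genes at the end of chromosome 35 it was 0.027. Pairs in the same block had a median of 0.15 (56 pairs) and pairs in different blocks 0.047 (49 pairs). Pairs of equal length had a median of 0.14 (18 pairs) and pairs of unequal length 0.082 (87 pairs). These medians describe pairs that share genes and libraries and carry no test.

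Of the 105 pairs, 7 had an adjusted p under 0.05 by permutation of r, 6 by permutation of Spearman's rho, and 6 by both. All 7 were positive, and 24 pairs passed unadjusted. They fell mostly into 2 trios, 1 of genes 9, 36 and 37 and 1 of genes 11, 12 and 17. Within the first trio r ran from 0.39 to 0.53, within the second from 0.38 to 0.42, and between them from −0.02 to 0.28 with a median of 0.07. The seventh pair joined gene 15 to gene 36 (r = 0.41).

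**Figure D2:**
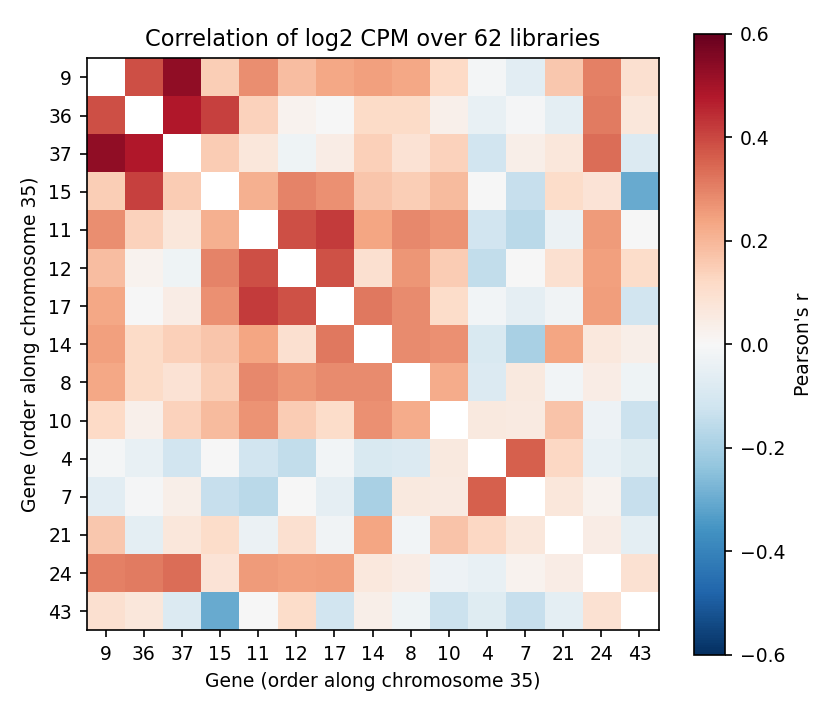
Each square gives Pearson's r of log2 CPM over 62 libraries for a pair of the 15 genes (both axes: gene number along chromosome 35), from blue (negative) to red (positive). Dark red squares mark genes 9, 36 and 37 and, apart from them, genes 11, 12 and 17.

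The first trio crossed blocks. Gene 9 lies in the block of genes 3 to 21, and gene 37 (ENSCAFG00000048797, 25050251 to 25050661, 411 bases, the H3 length) lies 983 kb further on, 4.23 kb past gene 36 (681 bases, within the range of H1 coding lengths). Gene 9 ran from 0 to 15.1 CPM in untreated libraries with a median of 1.42, and gene 37 from 0 to 11.9 with a median of 0.887. Untreated replicate 17 had the highest value of both genes. Over the 62 libraries r was 0.53 and rho 0.46 (permutation p = 3e-05 for r, adjusted p = 0.00315 over 105 pairs). It was 0.47 without the 2 libraries farthest from the median of gene 9, 0.55 in untreated and 0.49 in surgical libraries. Genes 36 and 37 had r = 0.48 and rho = 0.46 (adjusted permutation p = 0.0063), with 0.38 in untreated and 0.43 in surgical libraries.

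The second trio lay within 1 block. Genes 11 and 17, both of the H2B length, had r = 0.42 and rho = 0.43 (permutation p = 0.00063 for r, adjusted p = 0.022), 0.43 without the 2 farthest libraries, 0.57 in untreated and 0.51 in surgical libraries. Genes 12 and 17 had r = 0.38, with 0.66 in untreated and 0.33 in surgical libraries. Gene 7, the most abundant, varied with neither trio. Its median r with the other 14 genes was −0.005, and its highest was 0.36 with gene 4, another gene of 312 bases (adjusted permutation p = 0.0575). Gene 43 had a median of −0.04.

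The run on chromosome 17 offered 5 genes of the same lengths for comparison, chosen after the data had been seen. Over 75 pairs, the median r with the 15 genes was 0.110. Gene 17 had r = 0.59 and rho = 0.57 with the 411-base gene at 59121976 to 59122386 on chromosome 17, which had 2037 counts and 20.3 CPM per kb. The permutation p was 1e-05, the smallest that 100000 resamples can give, and 0.00075 after adjustment over 75 pairs. The value was 0.75 in untreated and 0.54 in surgical libraries. Gene 12 had r = 0.49 with that gene and gene 11 had 0.43, over all 62 libraries. For gene 12 the value was 0.74 in untreated but 0.16 in surgical libraries, and for gene 11 it was 0.49 and 0.20; these differences were not tested. Gene 7 had r = 0.45 with another gene of the run, from 59176251, but rho was 0.26 (adjusted permutation p = 0.266).

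**Figure D3:**
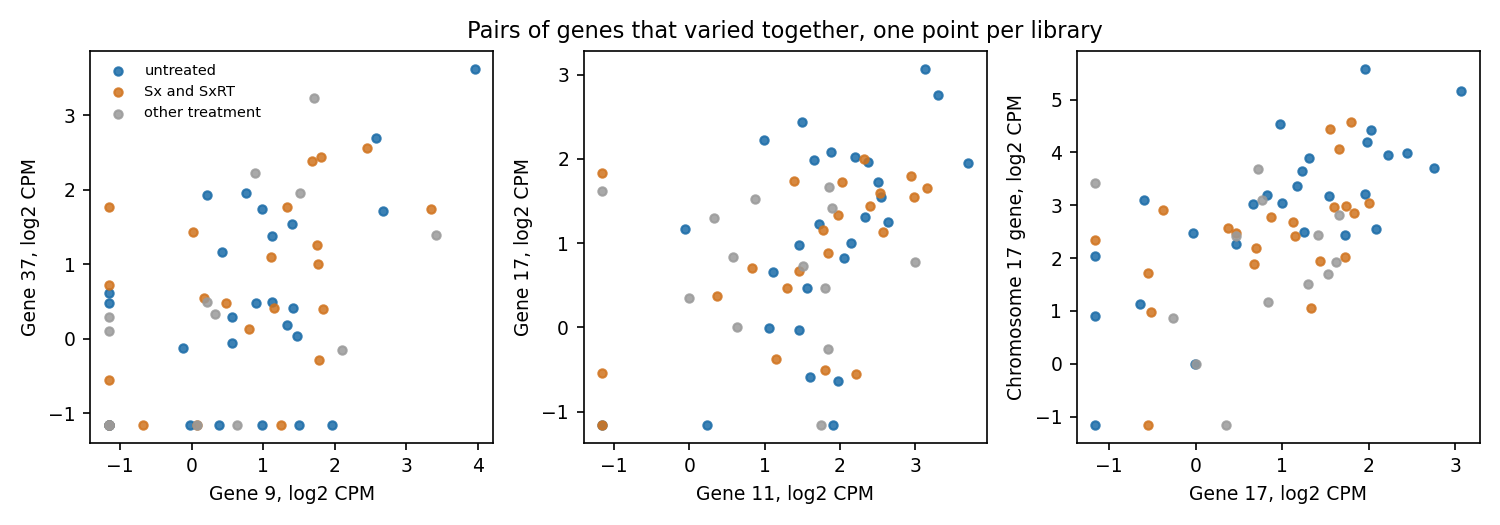
Points are the 62 libraries, in log2 CPM on both axes, for genes 9 and 37, genes 11 and 17, and gene 17 with the 411-base gene of chromosome 17; colours give untreated, surgical and other libraries. Colours mix in all panels, and libraries without counts lie along the lower and left edges.

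The treatment question was whether these genes differed between dogs with surgery, radiotherapy, steroids or an anti-epileptic drug and untreated dogs. Tumour biopsies are mixtures, so fewer cells of a type and less RNA per cell cannot be told apart. Summed over the 43 genes, scaled CPM ran from 18.3 to 78.3 with a median of 43.02 in untreated libraries. It ran from 22.6 to 56.9 (median 43.02) in Sx and from 17.1 to 58.8 (median 30.5) in SxRT. In steroid libraries it ran from 25.3 to 59.2 (median 40.3). The 3 RT libraries had 13.9, 27.4 and 50.2, and the 3 anti-epileptic libraries had 17.4, 20.7 and 30.2. Every group overlapped the untreated range, while 1 of 9 SxRT and 0 of 3 anti-epileptic libraries exceeded the untreated median.

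**Figure D4:**
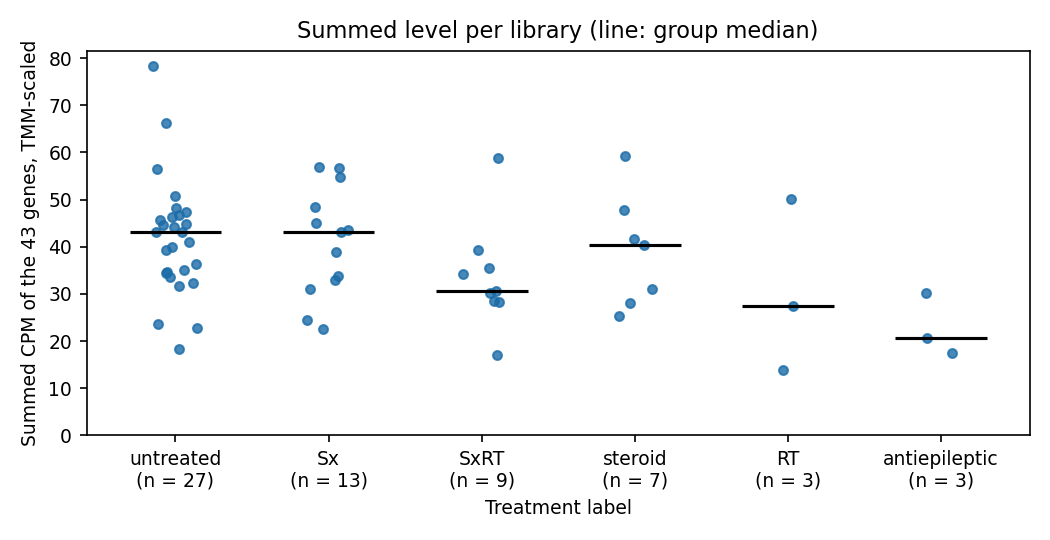
Points give the TMM-scaled CPM summed over the 43 genes (vertical axis) in each library, by treatment label (horizontal axis), and lines give group medians. All groups overlap, and the 3 anti-epileptic libraries lie between 17.4 and 30.2.

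No gene of the 43 was called between the combined surgical groups (Sx and SxRT, n = 22) and untreated dogs (n = 27) by edgeR's quasi-likelihood test at a Benjamini-Hochberg adjusted p under 0.05. Of the 17 genes tested, 0 were higher and 0 lower, where 6.37% of all genes tested were called higher and 10.4% lower (16.8% in all). At an unadjusted p under 0.05 the counts were again 0, against 12.7% of all genes higher and 17.2% lower. With the share of even values as a term, edgeR again called 0, where it called 260 of 18370 genes higher and 474 lower. DESeq2 called 0 as well, where it called 1186 of 18370 genes higher and 2329 lower. Limma voom called 1 higher, gene 21, where it called 8.73% of all genes higher. Log2 fold changes ran from −0.997 to 0.32 with a median of −0.30, and 5 of 17 were above 0, against a median of −0.02 and 48.7% above 0 over all genes. That direction was not stable: the median was −0.56 with 2 of 17 above 0 in samples whose names carry the numbers 11 to 16, and 0.088 with 13 of 21 above 0 in those numbered 17 to 22. With the number as a block in the fit it was −0.39. The labels do not explain these numbers. In the main fit, single-exon genes of the size range elsewhere had a median of −0.14, with 41.2% of 301 above 0. Of these, 7 were called higher and 21 lower. The other genes at the end of chromosome 35 had a median of 0.12, with 63.6% of 55 above 0. Of those, 1 was called higher and 5 lower. All comparisons with untreated dogs share the untreated libraries.

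Gene 7 illustrates the spread. It ran from 0 to 11.9 CPM in untreated libraries with a median of 4.92, from 1.42 to 9.92 with a median of 4.04 in Sx, and from 0.174 to 13.4 with a median of 6.53 in SxRT. The groups overlapped throughout, and the log2 fold change was 0.02, a direction that turned in 8 of 12 alternative fits. Gene 4 (312 bases, from 23978521) had the lowest fold change. It ran from 0 to 5.70 CPM in untreated libraries (median 0.786) and from 0 to 1.63 in surgical ones (median 0.471), a log2 fold change of −0.997 (SE 0.53, adjusted p = 0.200, edgeR). Over 11 alternative fits this ran from −1.87 to −0.31, with adjusted p of 0.0947 or more. Gene 12 ran from 0 to 12.95 CPM (median 4.24) in untreated and from 0 to 9.68 (median 2.57) in surgical libraries, and 5 of 22 surgical libraries exceeded the untreated median. Gene 21 ran from 0 to 12.95 CPM (median 1.77) and from 0.567 to 7.08 (median 2.86), and 17 of 22 exceeded it. Its log2 fold change was 0.32 by edgeR and 1.10 by limma voom (adjusted p = 0.0480), and it was −0.16 with the share of even values as a term.

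**Figure D5:**
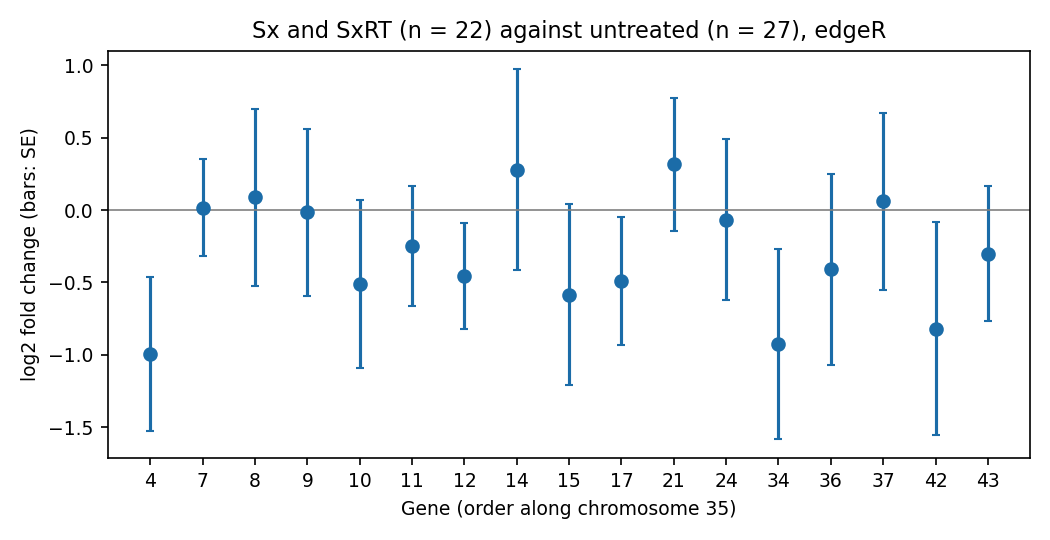
Points give edgeR's log2 fold change of Sx and SxRT against untreated (vertical axis) for the 17 genes tested, by gene number (horizontal axis), with bars of 1 SE. The values run from −0.997 for gene 4 to 0.32 for gene 21.

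Genes below the filter gave calls only when it was dropped. With 42 of the 43 genes tested by edgeR, 3 were lower in surgical dogs (adjusted p under 0.05), where 9.72% of all genes were. Gene 29 (387 bases, from 25005826) had counts in 8 of 27 untreated and 1 of 22 surgical libraries, gene 20 (378 bases, from 24189353) in 5 and 1, and gene 41 (381 bases, from 25061555) in 3 and 1. They had 59, 45 and 16 counts in all, so few libraries decide them.

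The other contrasts gave 0 calls too, by edgeR at an adjusted p under 0.05. For Sx alone against untreated, 0 were called, where 3.58% of all genes were called higher and 4.64% lower (8.22% in all). The median log2 fold change was −0.13, and 7 of 17 values were above 0, against 50.3% of all genes. The median was −0.68 in names numbered 11 to 16 (6 of 17 above 0) and 0.54 in those numbered 17 to 22 (16 of 21). At an unadjusted p under 0.05 there were 0, against 11% and 12.4%. Between SxRT and Sx 0 were called, against 0.0109% higher over all genes, with a median of −0.23 and 6 of 17 above 0 against 45.5%. The median was 0.28 in names numbered 11 to 16 (9 of 17 above 0) and −0.46 in those numbered 17 to 22 (7 of 21). At an unadjusted p under 0.05 there were 0, against 2.1% higher and 3.01% lower. For the steroid group 0 were called, against 0.256% higher, with a median of −0.29 and 5 of 17 above 0 against 52.4%. The median was −1.14 in names numbered 11 to 16 (3 of 17 above 0), 0.14 in those numbered 17 to 22 (13 of 21) and −0.0034 by limma voom. At an unadjusted p under 0.05 there were 0, against 6.99% higher and 3.98% lower. DESeq2 and limma voom called 0 in these 3 contrasts. Over all 18370 genes DESeq2 called 673 higher and 1342 lower for Sx, 18 and 21 for SxRT against Sx, and 83 and 27 for steroids. Limma voom called 514 and 240, 3 and 0, and 247 and 34. In the same order, edgeR medians of single-exon genes of the size range elsewhere were −0.087, −0.050 and −0.13. Those of the other genes at the end of chromosome 35 were 0.13, −0.025 and 0.0055.

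With 3 libraries a group, RT and the anti-epileptic drug gave wider values. For RT, 0 genes were called, where 0.425% of all genes were higher and 0.0109% lower (0.435% in all). The median was −0.40, and 4 of 17 were above 0 against 46% of all genes. It ran from −1.51 to −0.32 over 14 alternative fits and was −1.34 without RT replicate 1, −0.66 without replicate 2 and −0.78 without replicate 3. Single-exon genes of the size range elsewhere had a median of −0.10 (44.5% above 0). The other genes at the end of chromosome 35 had 0.012 (50.9% above 0). At an unadjusted p under 0.05, 0 were higher and 1 lower, against 3.83% and 4.02% of all genes. That was gene 12, with 1.88, 0 and 0 CPM in the 3 RT libraries against an untreated median of 4.24 (log2 fold change −2.69, SE 0.985, edgeR adjusted p = 0.398, limma voom −4.30 with adjusted p = 0.00894, where voom called 0.0708% of all genes lower). Over 14 alternative fits the value ran from −7.27 without RT replicate 1, the only RT library with counts of gene 12, to −2.11 without replicate 3. DESeq2 called 0 of the 17 genes for RT, where it called 30 of all 18370 genes higher and 28 lower. Gene 7 had 5.21, 5.65 and 10.8 CPM in the 3 RT libraries, all above its untreated median.

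For the anti-epileptic drug alone, 0 genes were called by edgeR, where 0.00544% of all genes were higher. Neither DESeq2 nor limma voom called any of the 17. Among all 18370 genes, 29 passed as lower by DESeq2 and 1 as higher. With limma voom, 6 passed as higher and 0 as lower. The edgeR median was −1.10 against −0.05 over all genes (−1.86 to −0.72 over 14 alternative fits), and 3 of 17 values were above 0 against 46.1%. The other genes at the end of chromosome 35 had a median of −0.44, with 30.9% of 55 above 0. Single-exon genes of the size range elsewhere had −0.18, with 38.2% of 301 above 0. At an unadjusted p under 0.05, 0 were higher and 2 lower, genes 4 and 9, against 1.95% and 2.66% of all genes. Gene 9 had no counts in the 3 libraries and had counts in 22 of 27 untreated ones. From pooled counts without TMM its untreated level was 2.03 CPM. That is 4.10-fold the 0.496 CPM that 3 fragments (6 counts) over the 3 libraries would give. This bound covers counting error and not the spread between dogs, as untreated libraries ran from 0 to 15.1 CPM. Over 14 alternative fits by edgeR, DESeq2 or limma voom, the log2 fold change of gene 9 ran from −6.27 to −3.27, with adjusted p of 0.228 or more. Gene 4 had 0, 0 and 0.195 CPM (edgeR log2 fold change −3.50, adjusted p = 0.973), and over 14 alternative fits the value ran from −5.52 without replicate 3, the only one with counts, to −1.94 by limma voom. Genes 4, 9 and 12 were picked out here after their values were seen.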

How the data were processed

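Raw gene counts of 62 libraries were deposited. They come from featureCounts 2.0.4, per the file headers, run on CanFam3.1 with the Ensembl 100 annotation, on primary alignments, unstranded, each read of a pair being counted. Per the submitters' processing notes, STAR, featureCounts and DESeq2 were used with canFam3. No version of STAR or DESeq2 is given in the sources used here, nor is ribosomal RNA removal or poly(A) selection. Histone genes of a class are near-identical, so the copy that a shared read was assigned to is uncertain. Gene 42 shares 219 of its 408 bases, and gene 2 shares 33, with exons of other genes.

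The members and lists were chosen with earlier results of these data known. Groups follow the treatment label, and replicate numbers follow accession order. Genes were filtered with filterByExpr by group (18370 left), scaled by TMM (0.556 to 1.24) and fitted with edgeR 4.0.16 in R 4.3.3, with 6 groups, sex and neuter status in 1 fit of all 62 libraries. P-values were adjusted over all genes by Benjamini-Hochberg. Correlations used log2 CPM and 100000 permutations, 2-sided. Named genes were the 5 highest per kb, those of the 3 closest pairs and any called; genes 4, 8, 15, 20, 24, 25, 29, 41 and 43 were added after their values were seen. Alternatives used DESeq2 1.42.0 and limma 3.58.1. Intervals and floors cover counting error only. Python 3.11.15 with numpy 2.4.6, scipy 1.17.1 and pandas 2.3.3 did the rest.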

Additional observations from a re-analysis of the deposited data

Results flagged for a closer look

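Within the 7 steroid and the 9 SxRT libraries, each of the 17 genes tested and the summed CPM were examined for a far library. Of these 36 checks, 2 found a library far from the others, which is about what chance gives at 1 in 20. The checks share libraries and are not independent. Gene 7 had its lowest steroid value in steroid replicate 2, at 0.24 log2 CPM, with the other 6 steroid libraries between 1.83 and 2.76. Gene 11 had its lowest in steroid replicate 3, at −1.16 log2 CPM, the value of a library without counts, with the others between 0.58 and 1.89.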

How the results depend on the processing

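Counts of called genes were recomputed in 75 combinations of an alternative setting and a contrast, most settings giving several contrasts from 1 fit. This gave 150 counts of higher or lower genes, and 147 were 0. The exceptions were 3 lower in surgical dogs by edgeR without the filter, 1 higher in surgical dogs by limma voom and 1 lower in RT by limma voom. Leaving out each RT or anti-epileptic replicate gave 0 throughout. Some fits called few genes at all, so a 0 for these genes says little there. For Sx and SxRT against untreated, names 11 to 16 gave 0 calls over 18153 genes. For RT, names 17 to 22 gave 0 over 19503, and leaving out RT replicate 1 gave 8 over 19278. With RLE size factors, 1006 of 18370 genes were higher and 2174 lower for Sx and SxRT against untreated. The median correlation stayed between 0.073 and 0.148 over 11 alternatives, 4 of them chosen after seeing the data (names with N or S only, and without either of the 2 deepest libraries). The median log2 fold change of the genes tested turned in names 17 to 22 to 0.088 for Sx and SxRT, 0.54 for Sx and 0.14 for steroids, each against untreated, and in names 11 to 16 to 0.28 for SxRT against Sx. The fold change of Sx and SxRT against untreated turned for 7 of the named genes, none with an adjusted p under 0.05, and the cause was not tested. Gene 7 became −0.028 with RLE size factors, −0.032 by DESeq2, −0.16 by limma voom, −0.0053 without sex and neuter status, −0.45 with the even share, −0.14 in names numbered 11 to 16 and −0.20 in 17 to 22. With the name number as a block, added after seeing the data, gene 7 became −0.16 and gene 37 −0.12. That fit called 0 of the 17 genes tested in any contrast. Over all 18370 genes it called 642 higher and 775 lower for Sx and SxRT against untreated, and 24 and 10 for Sx. In each other contrast it called at most 1. In names 17 to 22, gene 12 became 0.043, gene 9 0.48 and gene 17 0.00099. With the even share, gene 21 became −0.16, gene 9 0.16 and gene 37 −0.043. Gene 21 became −0.14 in names 11 to 16, gene 36 0.27 by limma voom, and gene 37 −0.040 without the surgical library with an N name. No paired analysis was possible because the labels carry no replicate numbers, and the number in the sample names is shared by several dogs of a group and pairs none. Low counts limit all single-gene values: 26 of 43 genes did not pass the filter, and 1 count is worth 0.239 CPM in the median library.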
